A study of Mus musculus with 9 samples.

Results

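The cytosolic ribosomal protein genes described here are the 83 genes, of 55342 gene names in the deposited tables, whose symbol is Rps or Rpl followed by a number (with an optional a, x or l), by a, or by p0, p1 or p2. No expression level entered the choice. Of the 83, 76 were core members, with 30 proteins of the small and 46 of the large ribosomal subunit, 4 were protein-coding paralogs (Rpl3l, Rpl10l, Rpl39l and Rps27l), and 3 were annotated as processed pseudogenes (Rps4l, Rpl6l and Rpl32l). The pattern leaves out some genes of further core proteins, Rps3a1, Fau and Rack1 among them, and the paralogs Rpl36al, Rpl22l1 and Rpl7l1. RNA with poly(A) tails was sequenced from biopsies of the labial mucosa, the inner lining of the lip, of mice of 3 strains with 3 libraries each: Tac111 (replicates 1, 2 and 3), Tac146 (replicates 2, 3 and 4) and B6 (replicates 1, 2 and 3). According to the labels all mice were infected before biopsy and the mice carry different mutations. Neither the agent, the alleles of each strain nor the age of the mice could be stated from those labels. The labels call the cells of Tac111 and Tac146 T cells and those of B6 ILC1 cells (type 1 innate lymphoid cells), so strain and labelled cell type change together in each comparison with B6. Whether libraries of 1 strain came from separate mice is unstated, so p-values measure the spread between these libraries, which may be technical.

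The labelled cell types were not borne out by their markers. The 15 T cell markers together took 0.0017 to 0.0032% of the counts and the 15 markers of ILC1 and natural killer cells 0.0009 to 0.0041%, whereas squamous epithelium markers took 9.06 to 12.5% and skeletal muscle markers 2.86 to 5.51%. In Tac111, 5 of the T cell markers (Cd3d, Cd3e, Cd3g, Cd8a and Cd8b1) and 7 of the ILC1 and natural killer markers were at 0 in all 3 libraries. Of the tested markers, 7 of 13 for T cells, 9 of 11 for ILC1 and natural killer cells and 3 of 13 for macrophages and dendritic cells passed as lower in Tac111 than in B6, against 2.8% of all genes tested. In Tac146, 5 of the 13 T cell markers passed as lower than in B6, against 0.109% of all genes tested. There, 0 of the 11 ILC1 and natural killer and 0 of the 13 macrophage and dendritic markers passed as lower. Macrophage and dendritic markers took 0.0235 to 0.0275% of the counts in Tac111, 0.0209 to 0.0440% in Tac146 and 0.0323 to 0.0404% in B6. The part of these cells in the values below was not tested. The values below are therefore those of whole mucosa with epithelium and muscle. In such bulk samples fewer cells of a type and less RNA per cell cannot be told apart. Total expected counts ran from 27192359 to 46456500 per library.

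Ribosomal proteins assemble with ribosomal RNA in the nucleolus into a small subunit, which reads the messenger RNA, and a large subunit, which joins amino acids. Most are present in equal number in each ribosome, and their messenger RNAs are known to be short, abundant and to begin with a C followed by a run of pyrimidines (a terminal oligopyrimidine, or TOP, start), through which growth signals control their translation together. In vertebrates, many of their introns hold genes of small nucleolar RNAs, which guide the modification of ribosomal RNA.

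Promoter sequence from RefSeq (build GRCm38.p6) was matched by symbol for 61 members, 56 of them core. The 60-base windows shown run from 40 bases before the annotated transcription start to 20 bases from it onwards, 5′ to 3′ on the gene's strand. They are shown to describe the genes, and whether these motifs bear on the movement of core genes between libraries was not tested. Capitals mark a C with 4 further pyrimidines at the first transcribed base, and any GGAAGT or its reverse complement ACTTCC, the core of sites bound by ETS-family factors. Rps6 (the S6 kinase target), Rpl35, Rps18, Rps27 and Rps15a hold the pyrimidine start, Rpl36a and Rps27l hold GGAAGT without that start, and Rpl4, Rplp0 and Rpl3l hold neither in the window.
Rps6, chr4:86857348-86857407, minus strand: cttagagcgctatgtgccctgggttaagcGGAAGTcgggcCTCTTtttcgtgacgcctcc
Rpl35, chr2:39005112-39005171, minus strand: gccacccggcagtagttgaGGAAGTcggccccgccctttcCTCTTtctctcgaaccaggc
Rps18, chr17:33955646-33955705, minus strand: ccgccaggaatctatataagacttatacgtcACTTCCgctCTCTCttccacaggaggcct
Rps27, chr3:90213629-90213688, minus strand: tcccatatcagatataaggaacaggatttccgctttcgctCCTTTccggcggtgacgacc
Rps15a, chr7:118116128-118116187, minus strand: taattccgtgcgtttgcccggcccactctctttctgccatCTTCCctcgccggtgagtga
Rpl36a, chrX:134585614-134585673, plus strand: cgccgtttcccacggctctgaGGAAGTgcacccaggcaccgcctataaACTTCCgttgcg
Rps27l, chr9:66946046-66946105, plus strand: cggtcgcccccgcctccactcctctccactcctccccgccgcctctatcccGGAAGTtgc
Rpl4, chr9:64173347-64173406, plus strand: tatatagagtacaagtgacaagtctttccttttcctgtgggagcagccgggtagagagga
Rplp0, chr5:115559427-115559486, plus strand: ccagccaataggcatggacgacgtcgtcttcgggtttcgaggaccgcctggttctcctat
Rpl3l, chr17:24727786-24727845, plus strand: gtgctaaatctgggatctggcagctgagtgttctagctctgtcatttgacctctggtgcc

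The pyrimidine start stood exactly at the annotated first base in 13 of 56 core genes (23.2%), against 2.96% of the 26964 other genes with a promoter in the table. Counting such a run anywhere within 10 bases of the annotated start, the shares were 60.7% of the core genes and 34.3% of the others. Over the 300 bases from 250 before to 50 after the start, read on both strands, GGAAGT stood in 51.8% of the core genes and 26.5% of the others, and the longer CCGGAAGT, which contains it, in 19.6% and 4.27%. GGGCGG, the core of the GC box, stood in 60.7% of the core genes and 38.2% of the others, and TATAAA in 10.7% and 15.7%. CACGTG, the E-box bound by Myc, stood in 10.7% of the core genes and 8.09% of the others. These are matches of letters in fixed windows around annotated starts, not measured sites. The median log2 fold change of Tac111 over B6 was 0.20 over the 13 core genes with the exact pyrimidine start and 0.19 over the 43 without it. That split cannot separate genes by such a start, because many of the 43 held a pyrimidine run within 10 bases of the annotated start.

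The core genes were among the most abundant transcripts of the mucosa. Levels between genes were compared as CPM (counts normalised to the scaled library size) per kb of the annotated principal transcript, as the mean over the 9 libraries. By this scale 75 of the 76 core members were among the 500 highest of 16501 tested genes with a known length, and 26 were among the 100 highest. The median core member stood at 843 CPM per kb, against 5.13 CPM per kb for the median of all tested genes, and 70 of the 76 lay within 2-fold of that core median. The 5 highest were Rplp1 at 2216 CPM per kb, Rplp0 at 1914, Rpl41 at 1675, Rps12 at 1669 and Rps18 at 1572. Rplp0, Rplp1 and Rplp2 form the stalk of the large subunit that recruits elongation factors. The third of them, Rplp2, stood at 1086 CPM per kb, below both partners. Rpl41 encodes the smallest ribosomal protein, Rps12 and Rps18 proteins of the small subunit.

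The lower end of this order held the paralogs and pseudogenes. Among core members, Rps20 was lowest at 140 CPM per kb, a value that rests on an annotated transcript of 3706 bases, the longest of the core set, whose median was 705 bases. Rpl27a at 309, Rpl37 at 380, Rpl35 at 385 and Rpl5 at 454 CPM per kb came next. Their annotated transcripts, of 1158, 835, 946 and 2045 bases, were also longer than the core median, so these ranks depend on the transcript chosen. Below the core range lay Rps27l at 124, Rpl3l at 110.9, Rps4l at 16.7, Rpl6l at 2.33, Rpl39l at 0.381 and Rpl32l at 0.0708 CPM per kb. The order was nearly the same in every library, with Spearman's rho of core levels between 0.95 and 1.00 over the 36 pairs of libraries, a description over genes that share library and length. Core transcripts had a median of 705 bases and 5 exons, against 2760 bases and 9 exons for the 14795 other tested protein-coding genes. Of the 76 core genes, 29 had a small nucleolar RNA gene annotated inside them, and 4 were X-linked (Rps4x, Rpl10, Rpl36a and Rpl39).

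**Figure D1:**
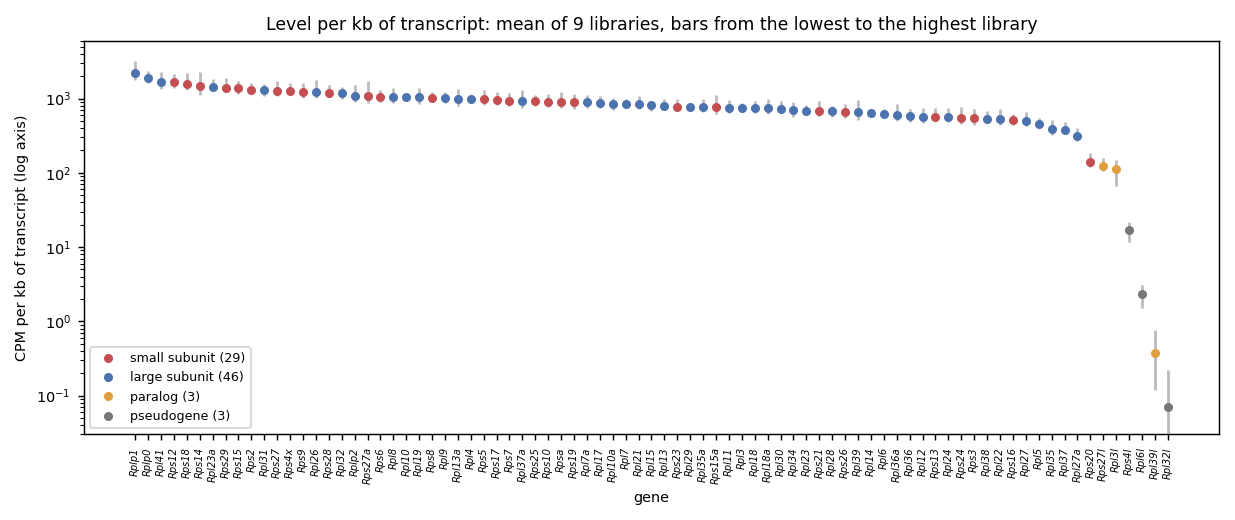
Level of the detected genes shown in CPM per kb of transcript on a log axis, in descending order. Points are means over 9 libraries and grey bars run from the lowest to the highest library (to the foot of the axis where a library is at 0), with colours for small subunit, large subunit, paralogs and pseudogenes. Core members lie between 140 and 2216 CPM per kb, and Rps4l, Rpl6l, Rpl39l and Rpl32l lie below 17.

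Each paralog was set beside the core gene it resembles. Rpl10l, which in mouse replaces X-linked Rpl10 in male germ cells, had 0 counts in all 9 libraries. With 3 counts over a strain's libraries as the limit, that allows up to 0.032 CPM in Tac111, 0.0243 CPM in Tac146 and 0.0299 CPM in B6, covering counting error only. Rpl10 itself averaged 840 ± 41.8 CPM in Tac111, 839 ± 37.6 in Tac146 and 808 ± 57.2 in B6 (SD, n = 3 each). Rpl39l, a testis-enriched copy of Rpl39 in mouse, summed to 23, 21 and 24 counts over the libraries of Tac111, Tac146 and B6, and the pseudogene Rpl32l to 5.01, 3 and 1. These 3 genes were too low to test.

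Rps27l, a paralog of Rps27 known as a p53 target, stood at 124 CPM per kb, against 1272 for Rps27. Its CPM were 63.3, 69.4 and 79.5 in Tac111, 58.2, 58.4 and 56.8 in Tac146, and 64.2, 52.2 and 56.1 in B6. All 3 Tac111 libraries lay above all of Tac146, and 1 B6 library overlapped them. The log2 fold change was 0.30 (SE 0.10) over B6 and 0.29 (SE 0.10) over Tac146, with edgeR adjusted p = 0.144 and 0.0919, so neither passed the threshold of 0.05. No member of the 13-gene list of p53 and ribosome-stress genes passed in any comparison either. Of all genes tested, 3.81% passed for Tac111 over B6, 0.303% for Tac146 over B6 and 8.89% for Tac111 over Tac146. So short a list cannot show that these genes stayed unchanged.

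Rpl3l, which replaces Rpl3 in striated muscle, varied more between libraries than Rps27l, the other paralog tested. Its CPM were 169, 160 and 205 in Tac111, 141, 142 and 90.3 in Tac146, and 169, 149 and 148 in B6. The 3 Tac146 libraries lay below all others, and Tac146 replicate 4 lay lowest by a wide gap. The ratio of Rpl3l to Rpl3 in that library was 0.0847, against 0.141 to 0.174 in the other 8. Its skeletal muscle markers took 2.86% of the counts, against 4.34 to 5.51% elsewhere. The part of muscle content in the Rpl3l values was not tested.

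In the fits, Rpl3l had a log2 fold change of -0.32 (SE 0.17, edgeR adjusted p = 0.754) for Tac146 over B6, of 0.19 (SE 0.17, adjusted p = 0.505) for Tac111 over B6, and of 0.52 (SE 0.17, adjusted p = 0.0720) for Tac111 over Tac146. The last passed with DESeq2 (adjusted p = 0.0287) and without the filter on low counts (edgeR adjusted p = 0.0282). For that comparison DESeq2 called 2677 of all genes, against 1469 with edgeR. Without Tac146 replicate 4 the log2 fold change of Tac111 over Tac146 fell to 0.33, and that of Tac146 over B6 became -0.14. Rpl3 itself stood at 1051, 973 and 1176 CPM in Tac111, 980, 1005 and 1065 in Tac146, and 1023, 883 and 1012 in B6, with overlap between all strains.

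The share of a library's counts taken by the 83 members overlapped between Tac111 and B6 and between Tac146 and B6. It was 5.32, 5.30 and 6.43% in Tac111, 5.23, 4.99 and 4.86% in Tac146, and 5.57, 4.57 and 4.91% in B6. The means were 5.68 ± 0.648% in Tac111, 5.03 ± 0.184% in Tac146 and 5.02 ± 0.507% in B6 (SD, n = 3 each). Tac111 replicate 3 stood above all others and B6 replicate 2 below all others, while Tac111 replicates 1 and 2 lay inside the B6 range and just above the highest Tac146 library. The ratio of small to large subunit counts ran only from 0.671 to 0.721 over the 9 libraries, highest in Tac111 replicate 3.

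The core genes moved as a block from library to library. Relative to each gene's mean log2 CPM over 9 libraries, the median core deviation was 0.00, 0.01 and 0.37 in Tac111, -0.04, -0.05 and -0.07 in Tac146, and 0.05, -0.23 and -0.05 in B6. In Tac111 replicate 3 all 76 core members stood above their own mean, by up to 0.69 for Rps27a. In B6 replicate 2 none did, from -0.38 for Rps14 to -0.13 for Rpl14. Subtracting each library's median took away 85.6% of the summed variance of the core genes, and the median SD over libraries fell to 0.05 after subtraction, against 0.16 before it.

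**Figure D2:**
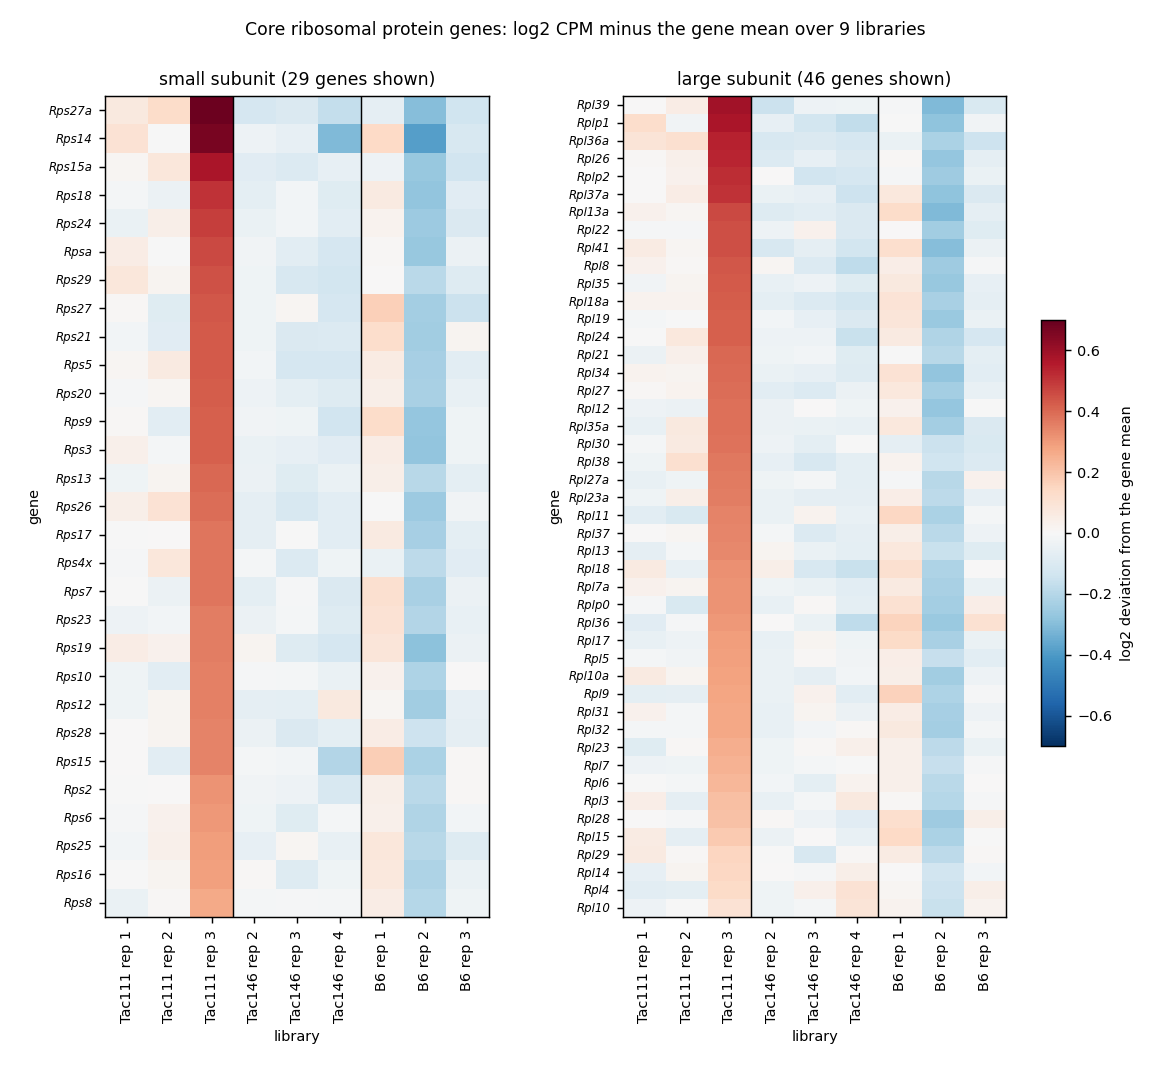
Heat map of log2 CPM minus the gene mean over 9 libraries for 29 small subunit and 46 large subunit core genes (rows, sorted by Tac111 replicate 3) in each library (columns, black lines between strains). Tac111 replicate 3 is above the mean and B6 replicate 2 below it in every row.

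Libraries of 1 strain differed in how many core members lay beyond all libraries of another strain. Of the 76 core members, Tac111 replicate 3 stood above all 3 B6 libraries in 75, whereas Tac111 replicates 1 and 2 did so in 15 and 17. B6 replicate 2 stood below all 3 Tac111 libraries in 76 and below all 3 Tac146 libraries in 76. B6 replicate 1 stood above all 3 Tac146 libraries in 66. Against Tac146, Tac111 replicates 1 and 2 stood above all 3 libraries in 44 and 43 core members, and Tac111 replicate 3 in 76. Counts of this kind for single libraries were not taken over all genes, so they have no background share. All 3 Tac111 libraries together lay above all B6 libraries in 10 core members, and above all Tac146 libraries in 35. Over all genes tested the shares were 13.7% and 17.1%. No core member lay below in either comparison, against 15.8% and 18.4% of all genes.

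A few core members departed from this common shift. Rps14 and Rps27a, which encodes a ubiquitin-ribosomal protein fusion, stood 0.29 and 0.31 above the library median on the log2 scale in Tac111 replicate 3. Rpl10, Rpl4, Rpl14 and Rpl29 stood below that median there, by log2 values of -0.27, -0.24, -0.23 and -0.22. The SD of core members around the library median was 0.12 in Tac111 replicate 3 and 0.03 to 0.07 in the other 8 libraries.

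Other genes with short transcripts moved with the core genes. Over 1194 other tested protein-coding genes with transcripts under 1000 bases, the median deviation was 0.03, 0.06 and 0.29 in Tac111, -0.05, -0.08 and -0.13 in Tac146, and 0.07, -0.13 and -0.06 in B6. Over 6601 genes with transcripts of 3000 bases or more it was -0.02, -0.03 and -0.16 in Tac111, 0.02, 0.05 and 0.09 in Tac146, and -0.02, 0.06 and 0.03 in B6. Tac111 replicate 3 was thus highest for short and lowest for long transcripts, as it was highest for the core genes. B6 replicate 2 was low for short transcripts too, though Tac146 replicate 4 was lower. The part of transcript length or RNA quality in the members' values was not tested.

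Functional neighbours moved less than the core genes in the same libraries, without matching for transcript length. In Tac111 replicate 3 the median deviation was 0.18 for 38 translation factors and 0.14 for 75 ribosome biogenesis factors, against 0.37 for the core genes. In B6 replicate 2 these medians were -0.10, -0.07 and -0.23. Over 7000 other protein-coding genes with transcripts of 1000 to 3000 bases, the median was 0.09 in Tac111 replicate 3 and -0.04 in B6 replicate 2. The 7 ribosomal protein genes outside the symbol pattern stood at 0.41 and -0.26 in these libraries. In Tac111 replicate 3, skeletal muscle markers took 5.08% of the counts and squamous epithelium markers 9.71%, inside the range of Tac111 replicates 1 and 2. Its fibroblast and matrix markers took 0.286%, the lowest share of the strain, against 0.398 and 0.351% in replicates 1 and 2. Its gland markers, at 0.0051%, were highest and its ILC1 and natural killer markers, at 0.0009%, lowest of all 9 libraries. Fibroblast and matrix markers were highest of all libraries in B6 replicate 2, at 0.469%. The part of these cell types in the members' values was not tested.

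**Figure D3:**
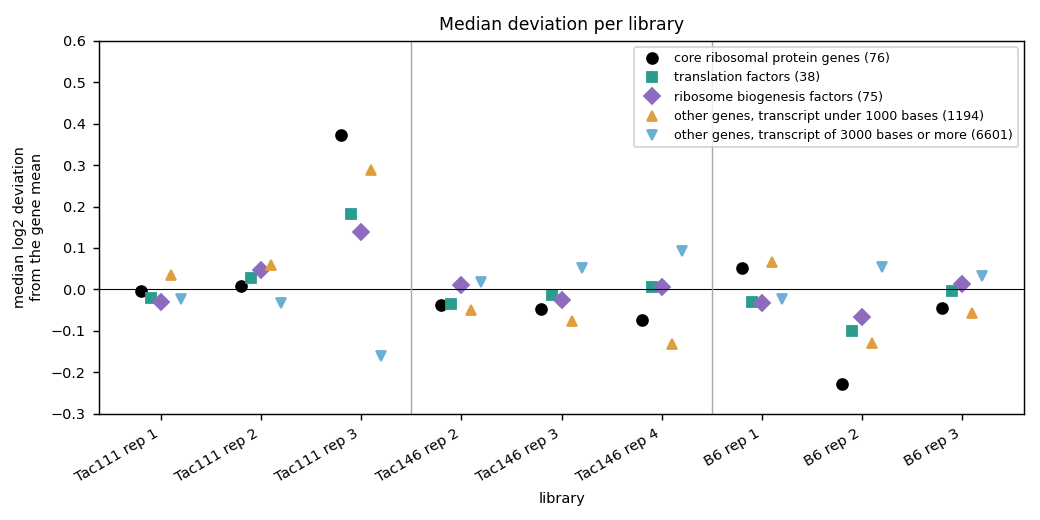
Median log2 deviation from the gene mean in each of the 9 libraries for core ribosomal protein genes, translation factors, ribosome biogenesis factors, and other protein-coding genes with transcripts under 1000 bases or of 3000 bases or more (numbers of genes in brackets). In Tac111 replicate 3 the core genes stand at 0.37, short other genes at 0.29 and long other genes at -0.16.

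In Tac111 mucosa, compared with B6, 1 member passed the test, the pseudogene Rps4l, and none of the 76 core members did. Across all 16523 genes tested with edgeR's quasi-likelihood test, 3.81% passed at an adjusted p under 0.05 (1.02% higher and 2.8% lower). Of the 80 tested members, 1 passed as higher, close to the 1.02%, and none passed as lower, against 2.8%. Fold changes of the members leaned to higher values in Tac111: 78 of 80 were above 0, against 52.4% of all genes, with a median log2 fold change of 0.20 against 0.02 for all genes. The median was 0.21 over the small subunit, 0.19 over the large subunit and 0.30 over the 3 stalk genes. The size of that lean varied with 2 libraries: the median was 0.07 without Tac111 replicate 3 and 0.13 without B6 replicate 2. Without both it was -0.00, and 39 of 81 members were above 0. These 2 were picked after their values were seen, as the highest and lowest libraries for the core genes. Leaving them out had to narrow the difference, so the joint value does not show what the lean rests on.

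Rps4l is a transcribed processed pseudogene, named for its likeness to the X-linked small subunit gene Rps4x (chromosome 6, 148354656 to 148355598, plus strand, GRCm38). Its CPM were 15.1, 17.1 and 16.7 in Tac111, 12.9, 12.01 and 12.2 in Tac146, and 10.4, 9.12 and 13.4 in B6. All 3 Tac111 libraries lay above the 6 others, and Tac146 overlapped B6. It rose in Tac111 over B6, with a log2 fold change of 0.57 (SE 0.13, edgeR adjusted p = 0.0432). Over Tac146 its log2 fold change was 0.39 (SE 0.13, edgeR adjusted p = 0.0809), and that of Tac146 over B6 was 0.18 (SE 0.13, adjusted p = 0.793).

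The call of Rps4l rested close to the threshold. It was lost when any of 7 of the 9 libraries was left out, with adjusted p of 0.0644, 0.144 and 0.127 without Tac111 replicates 1, 2 and 3, 0.0541 and 0.0624 without Tac146 replicates 2 and 3, and 0.114 and 0.154 without B6 replicates 1 and 2. Rps4l overlaps Tmtc1, which is on the opposite strand, and no label or header names the strand setting of the counting, so it is unknown whether reads of the pair were kept apart. Tmtc1 stood at 37.5, 32.4 and 29.0 CPM in Tac111 and 38.1, 44.5 and 37.7 in B6, lower in Tac111, and did not pass the test (log2 fold change -0.28, SE 0.15, adjusted p = 0.304). The expected counts of Rps4l were whole numbers in every library, from 262 in B6 replicate 2 to 583 in Tac146 replicate 2. Those of Rps4x were not whole. Sharing of reads between these 2 genes was not tested. Rps4x stood at 1223, 1302 and 1597 CPM in Tac111, 1221, 1153 and 1207 in Tac146, and 1192, 1083 and 1164 in B6. Tac111 lay above the 6 other libraries here too. Its log2 fold change of Tac111 over B6 was 0.26 (SE 0.12, edgeR adjusted p = 0.226).

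**Figure D4:**
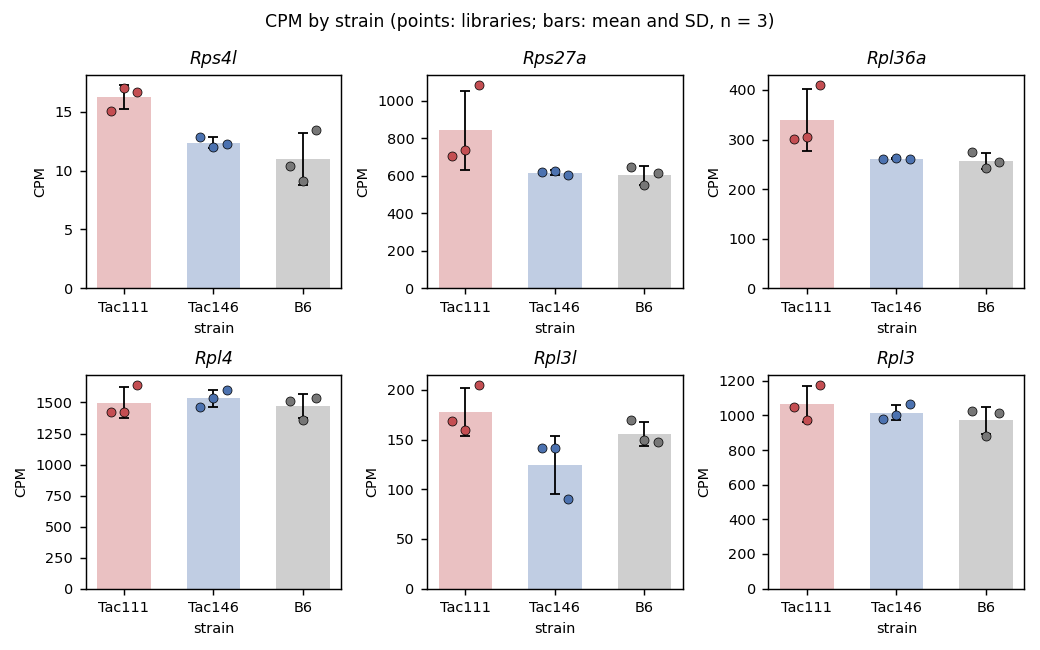
CPM of Rps4l, Rps27a, Rpl36a, Rpl4, Rpl3l and Rpl3 in Tac111, Tac146 and B6. Points are libraries and bars are the mean with SD (n = 3). Rps4l in Tac111 lies between 15.1 and 17.1 CPM, above the 6 other libraries, and Rpl3l in Tac146 replicate 4 lies at 90.3 CPM.

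Of the small subunit genes, Rps27a, Rps14 and Rps15a had the largest fold changes of Tac111 over B6. Rps27a stood at 705, 738 and 1085 CPM in Tac111, 622, 628 and 601 in Tac146, and 645, 548 and 612 in B6. Its Tac111 libraries lay above all others, replicate 3 by far. The log2 fold change was 0.49 (SE 0.15) with an edgeR adjusted p of 0.117, and 0.0362 with DESeq2, and it fell to 0.26 without Tac111 replicate 3. DESeq2 called 1213 of all 16523 genes for Tac111 over B6, against 630 with edgeR.

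Rps14 stood at 924, 860 and 1367 CPM in Tac111, 840, 827 and 695 in Tac146, and 947, 660 and 797 in B6. Its Tac111 libraries overlapped those of B6 but not those of Tac146. The log2 fold change of Tac111 over B6 was 0.39 (SE 0.19, edgeR adjusted p = 0.255), and 0.15 without Tac111 replicate 3. Rps15a stood at 486, 508 and 715 CPM in Tac111 and 470, 401 and 438 in B6 without overlap, with a log2 fold change of 0.39 (SE 0.14, edgeR adjusted p = 0.158), which was 0.19 without Tac111 replicate 3.

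Among large subunit genes, X-linked Rpl36a stood highest. Its CPM were 301, 305 and 411 in Tac111, 261, 263 and 260 in Tac146, and 274, 243 and 255 in B6. The Tac111 libraries did not overlap the others. The log2 fold change over B6 was 0.40 (SE 0.12), with an edgeR adjusted p of 0.103 and a DESeq2 adjusted p of 0.0350, and it was 0.23 without Tac111 replicate 3. X-linked Rpl39 lay higher in Tac111 without overlap but by a narrow gap, at 393, 406 and 590 CPM against 390, 317 and 364 in B6. Its log2 fold change was 0.38 (SE 0.15, edgeR adjusted p = 0.192). Of the other X-linked core genes, Rps4x lay higher without overlap and Rpl10 overlapped, with log2 fold changes of 0.26 and 0.06.

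The stalk genes followed the common shift in direction but not in size. Their log2 deviations in Tac111 replicate 3 were 0.57 for Rplp1, 0.52 for Rplp2 and 0.31 for Rplp0, against a core median of 0.37. Rplp1 stood at 1188, 1074 and 1620 CPM in Tac111 and 1088, 896 and 1071 in B6, with a log2 fold change of 0.35 (SE 0.15, edgeR adjusted p = 0.220). Rplp2 stood at 454, 462 and 648 CPM in Tac111 and 450, 382 and 438 in B6, with 0.30 (SE 0.14, adjusted p = 0.241). Rplp0 stood at 2566, 2405 and 3215 CPM in Tac111 and 2779, 2191 and 2668 in B6, with 0.10 (SE 0.14, adjusted p = 0.704). Tac111 replicate 3 was highest for all 3 genes, and only Rplp2 had no overlap between the strains.

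Rpl6l, Rpl4, Rpl10 and Rpl9 stood at the low end of this comparison. Rpl4, a large subunit protein that lines the exit tunnel, had 1423, 1426 and 1641 CPM in Tac111, 1464, 1534 and 1604 in Tac146, and 1514, 1357 and 1540 in B6. The strains overlapped throughout, with a log2 fold change of 0.03 (SE 0.11, edgeR adjusted p = 0.908). Lowest among tested members was the pseudogene Rpl6l, at 1.83, 1.34 and 2.44 CPM in Tac111 and 1.79, 2.68 and 2.09 in B6, with -0.21 (SE 0.25, adjusted p = 0.640). Rpl10 and Rpl9 had 0.06 (SE 0.10) and 0.07 (SE 0.13).

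In all, the Tac111 libraries lay above all B6 libraries in 11 of 80 tested members (Rps4l, 5 small and 5 large subunit genes) and below them in none. Over all tested genes 13.7% lay higher without overlap and 15.8% lower. At an unadjusted p under 0.05 there were 11 members, against 21.8% of all genes.

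In Tac146 mucosa the ribosomal protein genes stayed near their B6 levels. None of the 80 tested members passed, by edgeR or by DESeq2, and none had an unadjusted p under 0.05, against 0.303% of all genes passing and 6.96% at the unadjusted threshold. Core log2 fold changes ran from -0.08 for Rpl36 to 0.07 for Rpl30, with a member median of 0.02 and 54 of 80 above 0, against 52.3% of all genes. The direction of that median depended on single libraries and the scaling: it was -0.05 without B6 replicate 2 (9 of 81 above 0), 0.08 without B6 replicate 1 (77 of 80), -0.01 without Tac146 replicate 2 (38 of 81) and -0.01 with upper-quartile factors.

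The core members at both ends of the Tac146 comparison overlapped between the strains. Rpl36, a large subunit protein, had 225, 218 and 199 CPM in Tac146 and 250, 188 and 242 in B6, a log2 fold change of -0.08 (SE 0.13, edgeR adjusted p = 0.899). Rpl30, of the same subunit, had 394, 385 and 403 CPM in Tac146 and 387, 364 and 376 in B6, a log2 fold change of 0.07 (SE 0.11, edgeR adjusted p = 0.895). Rps15 and Rps21 had log2 fold changes of -0.07 and -0.05, and Rpl23, Rpl22 and Rps12 of 0.07 each. Rpl3l was the one member whose libraries did not overlap, lower in Tac146, against 6.29% of all genes lower and 6.36% higher without overlap.

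**Figure D5:**
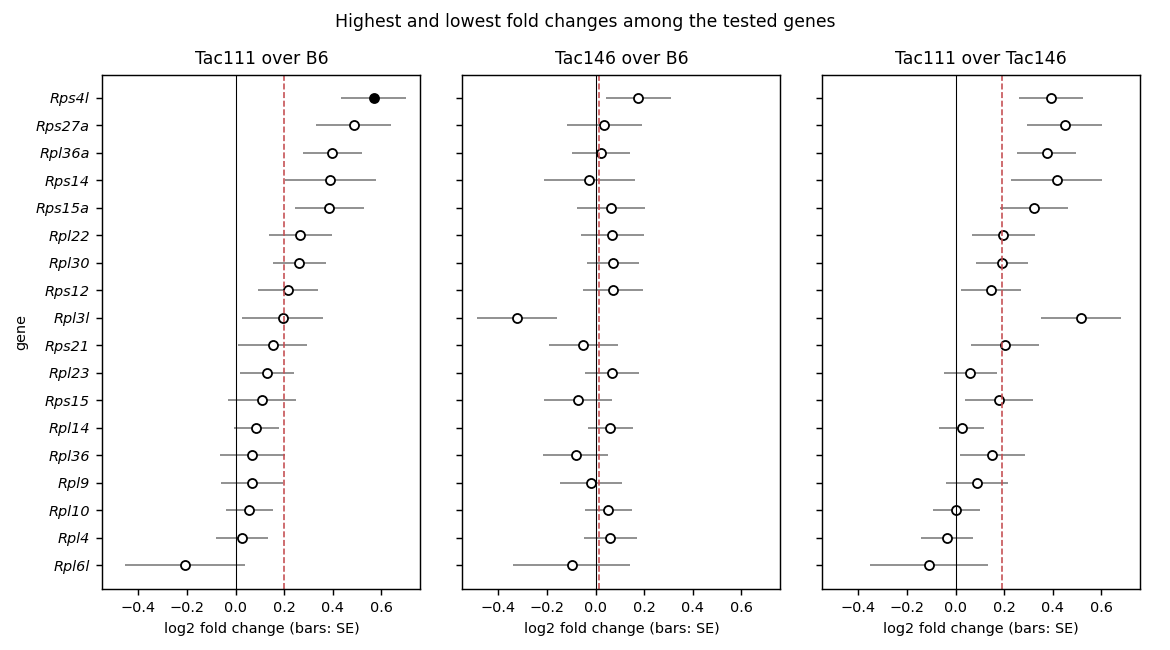
Log2 fold changes with SE for 18 genes that were among the 5 highest or 5 lowest tested members of any comparison, in the same rows of the panels Tac111 over B6, Tac146 over B6 and Tac111 over Tac146. Filled points passed the edgeR test, and dashed lines mark the median of all 80 tested members. The Tac146 over B6 panel centres on 0.02, and the other panels on 0.20 and 0.19.

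Tac111 set against Tac146 also leaned to higher values. No member passed with edgeR, against 8.89% of all genes (2.62% higher and 6.27% lower), while 10 members had an unadjusted p under 0.05, against 30.9% of all genes. DESeq2 called 3, Rpl36a, Rpl3l and Rps27a, and 2677 of all genes, against 1469 with edgeR. The fold changes were above 0 in 77 of 80 members, against 52.0% of all genes, with a median of 0.19 against 0.02. Without Tac111 replicate 3 the median was 0.05 and 63 of 81 were above 0. Because this comparison shares the Tac111 libraries with that against B6, the 2 medians are not independent.

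In 38 of 80 members all Tac111 libraries lay above all Tac146 libraries, and in none below, against 17.1% and 18.4% of all genes. The 38 comprised 16 small and 19 large subunit genes, Rpl3l, Rps27l and Rps4l. Rplp1 was one of them, at 1049, 999 and 967 CPM in Tac146, with a log2 fold change of 0.36 (SE 0.15, edgeR adjusted p = 0.137). Rps27a had a log2 fold change of 0.45 (SE 0.15, edgeR adjusted p = 0.0849), Rps14 of 0.42 (SE 0.19, adjusted p = 0.163) and Rpl36a of 0.38 (SE 0.12, adjusted p = 0.0717). At the low end stood Rpl6l at -0.11, Rpl4 at -0.04, Rpl10 at 0.00 and Rpl14 at 0.02, and the sign of Rpl4 turned with upper-quartile factors.

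Among the ribosomal protein genes outside the symbol pattern, the paralog Rpl22l1 passed the test. It stood at 137, 140 and 172 CPM in Tac111, 110.6, 111.1 and 110.6 in Tac146, and 115, 99.95 and 108 in B6. Tac111 lay above the other strains without overlap, with a log2 fold change of 0.48 (SE 0.10, edgeR adjusted p = 0.0261) over B6 and 0.43 (SE 0.10, adjusted p = 0.0296) over Tac146. Leaving out Tac111 replicate 3 gave 0.36 (adjusted p = 0.0583) and 0.32 (adjusted p = 0.0715). The call was lost without Tac111 replicate 2 in either comparison, without B6 replicate 2 or 3 over B6, and without Tac146 replicate 3 or 4 over Tac146. Rpl22, the core gene it resembles, stood at 247, 247 and 340 CPM in Tac111 and 250, 210 and 234 in B6, with overlap, and did not pass with edgeR (log2 fold change 0.27, SE 0.13, adjusted p = 0.260).

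Of 75 ribosome biogenesis factors 1 passed as higher for Tac111 over B6, close to the 1.02% of all genes. It was Nop56, a core protein of small nucleolar ribonucleoproteins, at 59.9 ± 3.11 CPM in Tac111 and 46.1 ± 0.746 in B6 (SD, n = 3 each; log2 fold change 0.38, SE 0.09, edgeR adjusted p = 0.0365). None of the 38 translation factors, the 24 genes of TOR signalling and TOP control or the 13 p53 genes passed in any comparison. The shares of all genes passing were 3.81% for Tac111 over B6, 0.303% for Tac146 over B6 and 8.89% for Tac111 over Tac146. Lists this short cannot show that these pathways were unchanged. For Tac111 over B6 the median log2 fold change was 0.13 over translation factors, 0.09 over biogenesis factors, -0.09 over the TOR list and -0.00 over the p53 list, against 0.20 over the members. Eef1a2, the elongation factor of muscle and neurons, was lower in all Tac146 than in all B6 libraries without passing (log2 fold change -0.40, SE 0.14, edgeR adjusted p = 0.539).

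Reads that could belong to several copies touch nearly all members. In each library 70 to 72 of the 83 members had expected counts that were not whole numbers, against 12.6 to 14.2% of all detected names, as arises when reads are divided between similar sequences. Of 298 rows named as a member's numbered pseudogene (-ps), 169 had counts, together 0.388 to 0.458% of the members' counts. Rpl10a was most affected, with pseudogene rows at 9.27% of its own counts. Adding those counts to the members left Rps4l as the 1 member that passed for Tac111 over B6 and none in the other comparisons. Levels of genes with many copies are uncertain in this respect.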

How the data were processed

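The authors deposited expected counts for each gene symbol, estimates that need not be whole. Per the submitters' processing notes, reads were processed with STAR and RSEM on GRCm38, and per the labels' protocols libraries came from a stranded kit for polyadenylated RNA. No source used here gives their versions, annotation or strand setting.

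The members and gene lists were chosen with earlier results of these data known. In each table of 55450 lines, 107 symbols on several lines were summed, and 27 names that looked like dates were kept apart, leaving 55342 names. Expected counts were rounded and tested with edgeR 4.0.16 in R 4.3.3 (quasi-likelihood test, TMM factors, filterByExpr, 1 mean per strain over 9 libraries, 6 residual degrees of freedom), with Benjamini-Hochberg adjustment over 16523 genes and a threshold of 0.05. The test was first run on simulated counts. Each SE was obtained as |log2 fold change| over the root of F. CPM use library sizes scaled by TMM factors, and log2 deviations use CPM for core genes and CPM + 0.5 for the other sets. Lengths and coordinates are from GENCODE vM21 (GRCm38), matched by symbol for all 83 members. Where principal transcripts tied in coding length the shortest was used. Named genes are those called, the 5 highest and 5 lowest fold changes and the 5 highest and lowest levels, the paralogs with their partners, the stalk genes, and up to 4 genes of each list with the smallest p. Others were named after their values were seen, and values of 2 genes are not reported here. The alternatives were other scaling factors, DESeq2 1.42.0, other filters, only the 6 libraries of a comparison, a replicate block, adding pseudogene counts, other denominators and leaving out each library. Leaving out Tac111 replicate 3 with B6 replicate 2, and the grouping of other genes by transcript length, were added after seeing the data. Libraries within a strain differed beyond counting noise (chi-square per degree of freedom 15.3 to 94.5), and each was counted as its own sample. The same replicate numbers were not said to pair mice. Summaries used pandas 2.3.3 in Python 3.11.15, and plots matplotlib 3.10.9.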

Additional observations from a re-analysis of the deposited data

How the results depend on the processing

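Of the values for single genes under other settings, 532 kept their direction and their side of the threshold, 17 lost and 7 gained a call, and 20 changed sign. Of the summary values, 150 stayed within the bounds and 39 moved. DESeq2 called 3 members for Tac111 over B6 and 3 for Tac111 over Tac146, against 1 and 0 with edgeR, and without the filter on low counts 1 member (Rpl3l) was called for Tac111 over Tac146. Without Tac111 replicate 3 and B6 replicate 2, 0 members were called for Tac111 over B6 and their median log2 fold change was -0.0021. Over all genes, edgeR called 630 for Tac111 over B6, 50 for Tac146 over B6 and 1469 for Tac111 over Tac146. DESeq2 called 1213, 136 and 2677 in that order. Without the filter the first count was 1020 and the second 129. With only the 6 libraries compared, the second was 26 and the third 641. Without both named libraries the counts were 177, 14 and 286. The share of counts in members in Tac146 was 5.33% without mitochondrial transcripts and 5.23% without the muscle list. The cause was not tested.

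Leaving out each library gave 0 to 1 members called for Tac111 over B6, 0 to 1 for Tac111 over Tac146 (Rps4l, adjusted p = 0.0498, without B6 replicate 3) and 0 to 0 for Tac146 over B6. All genes called ranged over 295 to 958, 470 to 1829 and 33 to 64 in that order, and the member median over 0.07 to 0.27, 0.05 to 0.26 and -0.05 to 0.08. Log2 fold changes that changed sign among these fits were small. For Tac111 over B6, Rpl4 ranged from -0.0491 to 0.0601, Rpl9 from -0.0582 to 0.1641 and Rpl10 from -0.0021 to 0.0857. For Tac146 over B6, Rps15 ranged from -0.1688 to 0.0257, Rps21 from -0.1473 to 0.0292, Rps12 from -0.0004 to 0.1268, Rpl6l from -0.2294 to 0.0709 and Rpl22l1 from -0.0083 to 0.095. For Tac111 over Tac146, Rpl4 ranged from -0.108 to 0.0016, Rpl6l from -0.3568 to 0.075, Rpl10 from -0.0392 to 0.0408 and Rpl14 from -0.0325 to 0.071. Upper-quartile factors turned Rpl4 to 0.0151 for Tac111 over Tac146. Rpl10 was -0.0017 without the filter for Tac111 over Tac146.

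The replicate numbers are not said to pair mice, and same-numbered libraries did not deviate together (correlations -0.18 to 0.31). With the replicate number as a block, the member medians were 0.19 for Tac111 over B6, 0.03 for Tac146 over B6 and 0.17 for Tac111 over Tac146, and 1, 0 and 0 members were called. The count over all genes for Tac111 over Tac146 was 632. The block turned Rps15 to 0.0251 for Tac146 over B6 and Rpl4 to 0.001 for Tac111 over Tac146.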
